A study of Homo sapiens with 37 samples.

Results

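The alpha-like and beta-like globin genes were examined in K562, an established human erythroleukemia line that transcribes embryonic and fetal globin. The genes were chosen by symbol, as the 10 members of the human globin clusters HBZ, HBM, HBA2, HBA1 and HBQ1 on chromosome 16 and HBE1, HBG2, HBG1, HBD and HBB on chromosome 11. Of these, 9 had a row among the 32055 genes used here, and HBE1 was not analysed here. K562 cells had been electroporated with a Cas9 and GFP plasmid carrying 1 of 2 gRNAs against ZBTB7A (KO, 26 libraries) or the plasmid without a gRNA (Control, 11 libraries), single GFP-positive cells had been sorted and expanded, and RNA of their lysates had been read by bulk SCRB-seq. In this assay each RNA molecule is primed at its poly(A) tail and tagged with a unique molecular identifier (UMI), so counts are numbers of 3′ ends caught and do not grow with transcript length. The labels give each library's genotype but not its clone or gRNA, so libraries of 1 clone cannot be told from separate clones. P values here therefore measure only the spread between these libraries, which may be technical or clonal. Libraries are named below by group and a number in accession order.

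Hemoglobin holds a pair of alpha-like and a pair of beta-like chains, and both clusters are switched on development. HBZ (zeta) and HBE1 (epsilon) are embryonic, the duplicate genes HBG1 and HBG2 (gamma) are fetal, HBB (beta) and the minor HBD (delta) are adult, and the duplicate genes HBA1 and HBA2 (alpha) serve from fetal life on. HBM (mu) and HBQ1 (theta) are alpha-like genes whose products have no established part in hemoglobin. ZBTB7A, also called LRF, is a zinc finger repressor that is known to silence the gamma genes in adult erythroid cells. The comparison of KO with Control thus asks which globin transcripts differed when ZBTB7A had been targeted.

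Total UMIs ranged from 1070250 to 4270901 in KO libraries and from 563235 to 4710809 in Control libraries. K562 markers were present: 8 of 8 listed genes passed the filter on low counts. Of other lineages, 1 of 12 megakaryocyte markers, 2 of 13 myeloid markers and 1 of 8 lymphoid markers passed the filter. The summed level of the lymphoid list ran from 1.40 to 30.3 CPM in KO and from 16.5 to 74.0 CPM in Control libraries, that of the megakaryocyte list from 2.69 to 61.4 and from 1.02 to 9.97 CPM, and that of the myeloid list from 50.1 to 103 and from 85.4 to 119 CPM. The markers of these lists that were tested were all called, beside 10.2% of all genes. CD3D (log2 fold change -1.85) and CD33 (-0.66) were lower and GP1BA (3.35) and ITGAM (1.23) higher in KO. GP1BA had 0 to 7 UMIs in Control and 1 to 88 in KO libraries, and ITGAM 1 to 14 and 0 to 34. A scarce marker can pass the filter through the group where it is high, so these calls are no result about the lists. The part of these markers in the globin values was not tested. The 3′ counts of ZBTB7A itself did not differ (log2 fold change 0.12, SE 0.090, adjusted p = 0.331) and do not check the labels, since an edit in the coding exons need not lower them. Barcodes rich in A and T, with at most 2 G or C of 6 bases, marked 12 KO and 8 Control libraries, and those rich in G and C, with at least 4, marked 12 KO libraries and 1 Control library. The library KO 18 lay near the Control libraries for several globin values, and the 2 ratios that differed between the groups are given without it too.

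The gamma genes were the highest of the 9 globin genes with a row, which leave out HBE1. HBG2 held 1204, 2841 and 3469 CPM (UMIs scaled to the effective size of the library; lowest, median and highest) in Control libraries and 962, 2389 and 4572 CPM in KO libraries. HBG1 held 1055, 2180 and 2550 CPM in Control and 690, 1457 and 2390 CPM in KO libraries. HBZ followed with a median of 395 CPM in Control and 400 CPM in KO libraries, then HBQ1 with 92.7 and 82.3 CPM and HBA1 with 61.7 and 39.6 CPM. All globin rows together took a median of 0.560% of Control UMIs and 0.424% of KO UMIs, with ranges of 0.257 to 0.695% and 0.199 to 0.827%. Within libraries HBG2 exceeded HBG1 in 37 of 37, HBG1 exceeded HBZ in 37 of 37 and HBZ exceeded HBQ1 in 37 of 37. HBQ1 exceeded HBA1 in 33 of 37 libraries, so the order of this pair did not hold throughout. HBA2 exceeded HBD in 8 of 11 Control and in 11 of 26 KO libraries, so these neighbours in level had no fixed order either. The adult genes HBD and HBB were scarce, with HBD at medians of 16.6 and 13.3 CPM in Control and KO libraries. HBB had 1 to 9 UMIs in a Control library and 0 to 6 in a KO library, and HBM had 0 to 2 and 0 to 5.

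In the test across all genes (edgeR, quasi-likelihood), none of the 7 globin genes that passed the filter was called changed in KO. Called means that the adjusted p was under 0.05 and that the log2 fold change exceeded 0.5 in either direction, and 10.2% of the 10661 genes tested met it, 6.65% as higher and 3.53% as lower in KO. An unadjusted p below 0.05 was found for 1 of the 7, HBG1, beside 43.6% of all genes. An adjusted p below 0.05, whatever the fold, was found for none of the 7 and for 33.8% of all genes, 17.7% as higher and 16.2% as lower in KO. HBG1 was lower in KO by a log2 fold change of -0.41 (SE 0.17, 95% interval -0.76 to -0.07, adjusted p = 0.0583). HBG2 had a log2 fold change of -0.09 (SE 0.21, interval -0.51 to 0.34, adjusted p = 0.793), and the 2 genes summed had -0.21 (SE 0.19, interval -0.60 to 0.18, adjusted p = 0.431). A rise of the summed gamma counts by more than 0.18 on the log2 scale thus lay outside the interval. The fit takes every library as separate, so the interval may be too narrow where libraries share a clone. Because these are bulk samples, fewer cells with gamma transcripts and less RNA per cell cannot be told apart.

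The adjusted p of HBG1 stood close to 0.05, and the side on which it fell changed with single libraries. No KO library exceeded the highest Control library (2550 CPM in Control 1), and 6 of 26 lay under the lowest one (1055 CPM in Control 3). Without Control 3 the fit gave -0.47 (adjusted p = 0.0318), and without Control 5 or Control 6, or KO 5, KO 8, KO 11 or KO 20, the adjusted p also fell under 0.05, from 0.0360 without KO 11 to 0.0498 without KO 20. It rose to 0.120 without Control 1 and to 0.116 without Control 8. By limma-voom it was 0.0280 and by DESeq2 0.0419, with log2 fold changes of -0.46 and -0.41, while without a filter it was 0.109 and with barcode class as a covariate 0.161, with a log2 fold change of -0.35. HBG1 was called in none of these.

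The embryonic alpha-like gene HBZ had a log2 fold change of 0.20 (SE 0.28, interval -0.36 to 0.76, adjusted p = 0.611). Its levels were 193, 395 and 956 CPM (lowest, median, highest) in Control and 217, 400 and 1048 CPM in KO libraries, so the groups overlapped almost wholly. The alpha genes went the other way in sign: HBA1 had -0.23 (SE 0.21, adjusted p = 0.430), HBA2 had -0.50 (SE 0.45, interval -1.40 to 0.40, adjusted p = 0.411) and their sum had -0.29 (SE 0.28, interval -0.86 to 0.28, adjusted p = 0.453). HBQ1 had a log2 fold change of -0.16 (SE 0.094, adjusted p = 0.178), with 10 of 26 KO libraries under the lowest Control library and none over the highest. The minor adult gene HBD had -0.08 (SE 0.19, interval -0.46 to 0.29, adjusted p = 0.776). HBB and HBM entered a fit only without the filter on low counts, where HBB had -0.73 (SE 0.38, adjusted p = 0.254) and HBM 1.07 (SE 0.54, adjusted p = 0.239). There were 54 HBB UMIs over all KO libraries and 49 over all Control libraries, and 33 and 8 of HBM. At these low counts neither gene passed the adjusted p, and the power to detect a difference was not tested.

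**Figure D1:**
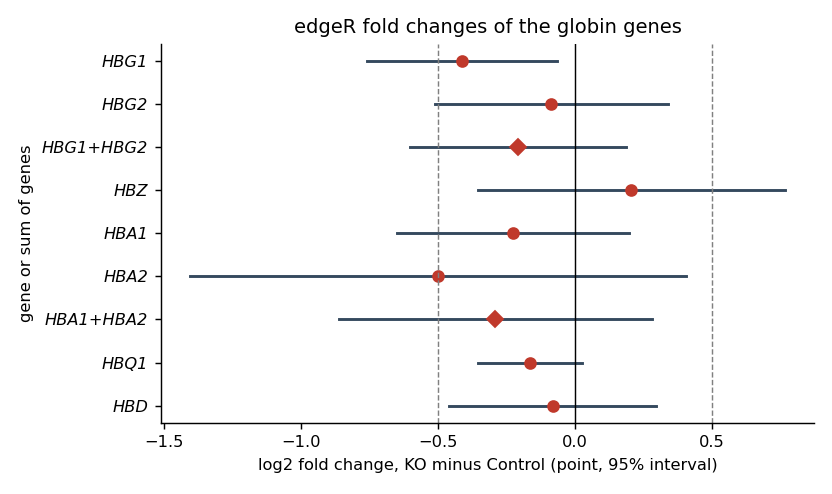
Fitted log2 fold change (KO minus Control, horizontal axis) of the 7 tested globin genes (circles) and the 2 sums (diamonds), with 95% intervals; dashed lines mark the size of 0.5 needed for a call. HBG1, at -0.41, has the only interval that leaves out 0, and that of HBA2 is the widest, from -1.40 to 0.40.

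The globin genes varied widely from library to library within either genotype. The biological coefficient of variation was 0.870 for HBA2, over that of 99.5% of tested genes, and 0.518 for HBZ, over 97.1%. It was 0.408 for HBA1, over 95.2%, and 0.332 for HBG1, over 93.0%, while HBQ1, at 0.172, lay over 72.8%. The common value over all genes was 0.154. From the lowest to the highest KO library the gamma sum spanned a 4.21-fold range, HBZ 4.83-fold and HBA2 15.6-fold, and over Control libraries 2.66-fold, 4.96-fold and 9.06-fold. Wide ranges were thus present in the Control libraries as well. HBD differed from the others here, since its log2 CPM had an SD of 0.62 over KO and 0.27 over Control libraries.

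**Figure D2:**
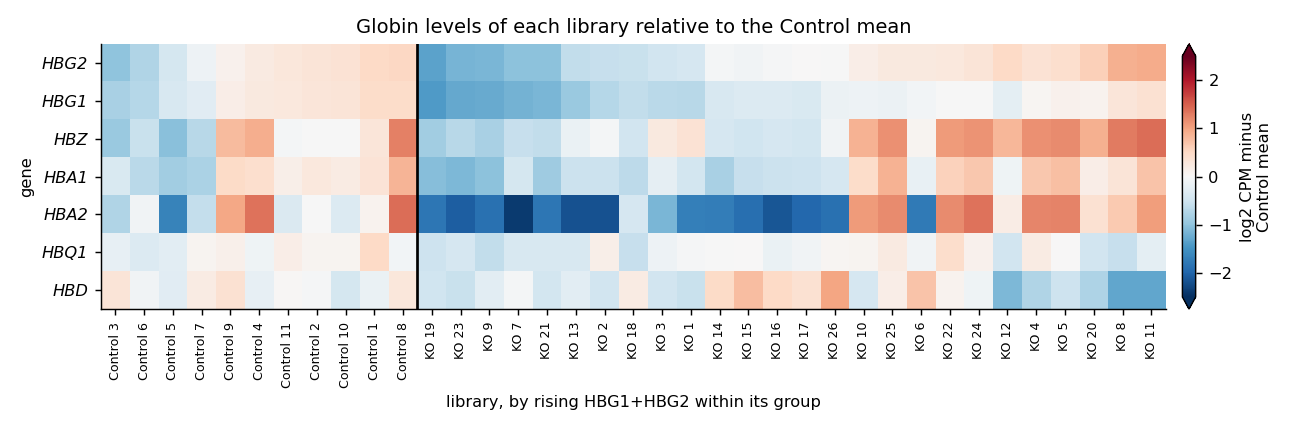
Level of each tested globin gene (rows) in each library (columns) as log2 CPM minus the mean of the 11 Control libraries, with Control libraries left of the line, KO libraries right of it, and each group ordered by its gamma sum. Red is above and blue below the Control mean; HBZ and HBA1 tend to be higher where the gamma genes are higher, and HBD is lowest in KO 11 and KO 8, which have the most HBG2.

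The duplicate genes share most of their sequence, which limits what their separate counts can show. The HBG1 transcript (chr11:5248269-5249857, minus strand, GRCh38, 3 exons) and the HBG2 transcript (chr11:5253188-5254781, minus strand, 3 exons) differ by 4 substitutions and 1 gap base over 587 and 586 bases. Counted from 1 at the 5′ end of the HBG1 transcript, with the HBG1 base first, these are C280T, C463G, T514G and G575A. The last 3 lie within 300 bases of the 3′ end, the stretch that this assay samples most. Of the 251 windows of 50 bases in that stretch, 127 (50.6%) occur unchanged in HBG2, and a read from such a window cannot be assigned to 1 of the genes. The coding stretch round C463G in exon 3 is shown for both because this base, in capitals, parts the alanine of the HBG1 chain from the glycine of the HBG2 chain and is 1 of the few that separate their reads. It lies at chr11:5248379-5248407 for HBG1 and chr11:5253297-5253325 for HBG2, minus strand.
HBG1: gaagatggtgactgCagtggccagtgccc
HBG2: gaagatggtgactgGagtggccagtgccc

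HBA1 (chr16:176680-177522, plus strand) and HBA2 (chr16:172876-173710, plus strand) differ by 15 substitutions and 5 gap bases over 577 and 576 bases, with every substitution within 97 bases of the 3′ end, and 61.4% of windows of 50 bases in the last 300 are shared. Upstream lie HBZ, with its main transcript at chr16:152644-154503, and HBM, with its main transcript at chr16:165978-166764. HBQ1 lies downstream at chr16:180459-181179. How reads that fit 2 genes were counted is not given in the sources used here, so each pair is given summed as well as singly.

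A ratio of 2 genes within a library needs no scaling to library size, and 4 such ratios were compared between the groups by two-sided permutation tests with 100000 resamples. The ratio of HBG2 to HBG1 was higher in KO. On the linear scale it was 1.14, 1.31 and 1.47 (lowest, median and highest) in Control and 1.36, 1.61 and 2.18 in KO libraries. On the log2 scale it was 0.39 ± 0.087 over Control libraries (SD, n = 11) and 0.68 ± 0.16 over KO libraries (SD, n = 26), a difference of 0.29 (permutation p = 1e-05, the smallest these resamples can give, adjusted over the 4 ratios to 2e-05). All 26 KO libraries lay above the Control median and 18 above the highest Control library, Control 7. Among AT-rich barcodes alone the difference was 0.23 (12 KO and 8 Control libraries, permutation p = 0.00011). Without KO 18, the lowest KO library at 0.44, the difference was 0.30, and leaving out the lowest KO value can only raise it. So HBG2 made up a larger part of the gamma UMIs counted in KO libraries, although neither gene was called by its level. Reads that fit both genes, or HBE1 reads counted under the HBG2 gene that spans it, may bear on this ratio, which was not tested.

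The ratio of HBZ to the summed alpha genes was higher in KO as well. There were 3.64, 4.96 and 5.60 HBZ UMIs for each alpha UMI (lowest, median and highest) in Control and 5.25, 7.06 and 10.9 in KO libraries. Reads that fit both alpha genes may be missing from the alpha sum, so these are ratios of counts and not of molecules. The log2 ratio was 2.26 ± 0.17 over Control libraries (SD, n = 11) and 2.81 ± 0.27 over KO libraries (SD, n = 26), a difference of 0.55 (permutation p = 1e-05, adjusted p = 2e-05). Again all 26 KO libraries lay above the Control median, and 22 lay above the highest Control library, Control 8. The difference was 0.58 among AT-rich barcodes (permutation p = 0.00031). It was 0.56 without KO 18, which had the lowest KO ratio here too, so that leaving it out could only raise the difference. With every library thinned to the smallest total it was 0.49 for HBZ to alpha and 0.30 for HBG2 to HBG1. Over the 26 KO libraries the HBZ ratio followed total UMIs with r = 0.55 and over the 11 Control libraries with r = -0.42, and that of HBG2 to HBG1 with r = -0.38 and -0.62, so the 2 groups did not share a sign for the first. The part of depth in these differences was not otherwise tested.

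**Figure D3:**
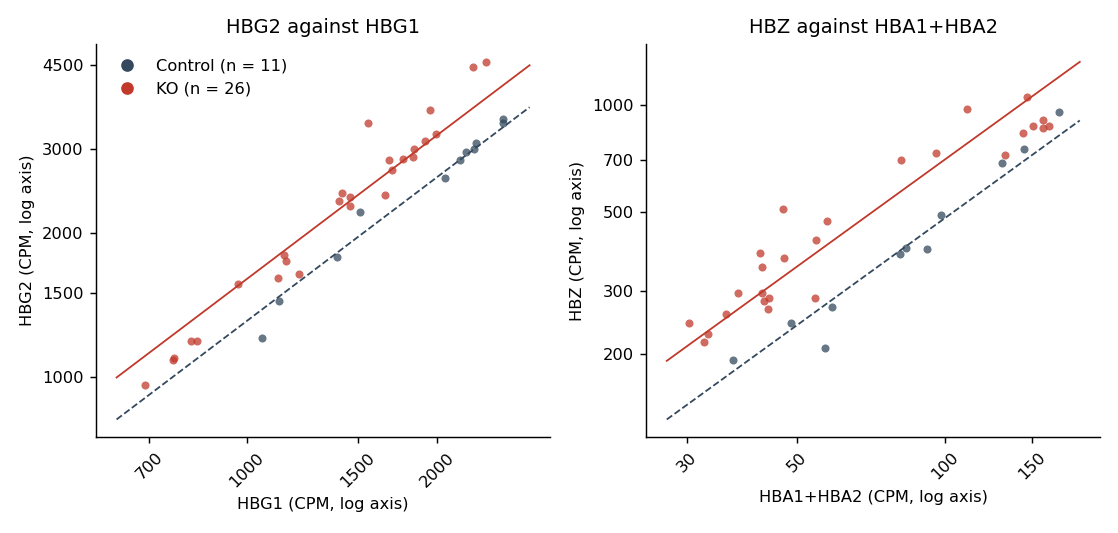
HBG2 against HBG1 (left) and HBZ against HBA1+HBA2 (right), both in CPM on log axes, 1 point a library, with a line of constant ratio at the geometric mean ratio of each group (solid KO, dashed Control). Levels of either pair rise together along the lines, and KO points lie above the Control line, which is the higher ratio of 1.61 against 1.31 and of 7.06 against 4.96 at the medians.

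The other 2 ratios did not pass the test. Alpha against gamma transcripts had a log2 ratio of -5.77 ± 0.53 over KO libraries (SD, n = 26) and -5.69 ± 0.47 over Control libraries (SD, n = 11), a difference of -0.08 (permutation p = 0.673). On the linear scale this was a median of 0.0175 and 0.0174 alpha UMIs for each gamma UMI in KO and Control libraries. Gamma UMIs exceeded alpha UMIs in every library. HBA2 against HBA1 had -1.55 ± 0.96 over KO libraries (SD, n = 26) and -0.96 ± 0.59 over Control libraries (SD, n = 11), a difference of -0.60 (permutation p = 0.0650, adjusted p = 0.0867). Here 14 of 26 KO libraries lay under the lowest Control library, Control 5, and none over the highest.

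HBA2 is the gene that normally gives more alpha mRNA than HBA1, and here it had fewer or as many UMIs in 37 of 37 libraries. Its levels over KO libraries left a gap, with 11 libraries at or above 20.4 CPM and the other 15 well below it, between 4.61 and about 12 CPM. Control libraries ran from 8.13 CPM in Control 5 to 73.7 CPM in Control 8 with a median of 25.8 CPM, and 14 KO libraries lay below the lowest of them. A gap was not particular to KO. On the log2 scale the widest gap was 0.76 in KO and 0.99 in Control libraries. The Control gap, from 8.13 to 16.2 CPM, set 1 library apart from the other 10. The call for HBA2 depended on the test: edgeR gave -0.50 as above, DESeq2 -0.36 (adjusted p = 0.586) and limma-voom, which averages logarithms, -1.16 (adjusted p = 0.0129), the only fit in which a globin gene was called.

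The gamma, zeta and alpha genes rose and fell together among libraries. Pearson's r of log2 CPM is given as a description without a test, since KO libraries fell into sets of like values. HBG1 and HBG2 had r = 0.98 over 26 KO and 0.99 over 11 Control libraries, and HBZ and the alpha sum had r = 0.95 and 0.98. Of the 251 windows of 50 bases at the 3′ end of HBZ, 0 occur unchanged in HBA1 or HBA2. Across the 2 clusters the gamma sum and HBZ had r = 0.84 in KO and 0.77 in Control, and the gamma sum and the alpha sum 0.79 and 0.72. HBD, which lies in the same cluster as the gamma genes, did not follow them, with r = -0.14 in KO and -0.18 in Control. The 3 KO libraries with the least HBD, at 6.41 CPM in KO 11, 6.45 CPM in KO 8 and 7.41 CPM in KO 12, held 4572, 4466 and 3403 CPM of HBG2, against a KO median of 2389 CPM. The highest HBD, 34.4 CPM in KO 26, stood beside 2400 CPM of HBG2. The log2 ratio of HBG2 to HBG1 followed the gamma sum in KO with r = 0.77 and in Control with r = 0.56, and its highest value, 1.13, was that of KO 12.

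Among genes outside the clusters, those most like the alpha sum over the 26 KO libraries were TSPAN17 (r = 0.95 in KO, 0.73 in Control), ALAS2 (0.95 and 0.60), BLVRB (0.94 and 0.89), TAL1 (0.94 and 0.50) and SYTL4 (0.93 and 0.55). ALAS2 makes the first enzyme of erythroid heme synthesis, BLVRB a biliverdin reductase that is abundant in red cells, and TAL1 an erythroid transcription factor. Those least like it were CDK6 (-0.94 and -0.42), STRAP (-0.92 and -0.76), ZDHHC2 (-0.92 and -0.31), SOCS2 (-0.92 and -0.48) and NAE1 (-0.91 and -0.36). For the gamma sum the most alike were SLC39A8 (0.93 and -0.37), HEMGN (0.92 and 0.32), ACSL3 (0.89 and -0.51) and DCAF10 (0.88 and -0.11). SLC39A8 is a zinc transporter and HEMGN a nuclear protein of hematopoietic cells. The least alike were BST2 (-0.88 and 0.14), RAB31 (-0.87 and 0.23), SMS (-0.85 and 0.32), VAPA (-0.84 and -0.36) and TGFBR2 (-0.84 and -0.31). Several of these, SLC39A8 and ACSL3 among them, changed the sign of r in Control libraries, which the alpha list did not.

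Of 28 repressors of fetal globin and their cofactors, 26 were tested, and 2 were higher and 6 lower in KO at an adjusted p below 0.05, near the 33.8% of all genes that passed it. Of these 1 was called, beside 10.2% of all genes, with a median log2 fold change of -0.05 over the list and -0.0046 over all genes. The call was MYB (-0.79, SE 0.16, adjusted p = 0.000145), a factor of erythroid progenitors that holds gamma expression down. HIC2, which represses BCL11A, was higher with a log2 fold change of 0.47 (SE 0.078, adjusted p = 1.2e-05). IKZF1 (-0.39), NFIA (-0.37) and the corepressor RCOR1 (-0.25) were lower without reaching the fold needed for a call, as was KLF1 (-0.22), an activator of BCL11A and HBB. BCL11A, the other main repressor of the gamma genes, had 0 to 18 UMIs in KO and 1 to 20 in Control libraries and was not tested. Of 24 activators and oncofetal factors, 23 were tested, and 5 were higher and 6 lower, beside 17.7% and 16.2% of all genes, with a median of 0.07. Of the 23, 2 were called as higher and 1 as lower, beside 6.65% and 3.53% of all genes. Higher were LIN28A (3.48, SE 0.34, adjusted p = 7.33e-10), an RNA-binding protein of fetal and stem cells, and LMO2 (0.51), a partner of TAL1. Lower was NFE2 (-0.52), which binds the locus control region. USF2 (-0.46) and EPAS1 (-0.39) were lower and TAL1 (0.39) was higher, all past the adjusted p but short of a call.

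Of 17 genes of heme synthesis and hemoglobin assembly, 16 were tested, and 5 were higher and 2 lower at an adjusted p below 0.05, beside 17.7% and 16.2% of all genes. Of the 16, 2 were called, both as higher, beside 6.65% of all genes: ALAS2 (1.41, SE 0.39, adjusted p = 0.00577) and PPOX (0.52). The median over the list was 0.18. ALAS2 held 20.3 to 93.0 CPM in Control libraries and 41.8 to 322 CPM in KO libraries, of which 10 exceeded the highest Control library. The transferrin receptor TFRC was lower by a log2 fold change of -0.37, and AHSP, the chaperone of free alpha chains, had 0 to 15 UMIs in KO and 0 to 34 in Control libraries and was not tested. Of 20 erythroid membrane and maturation genes, 16 were tested, and 8 were higher and 1 lower, beside the same shares of all genes, with a median of 0.29; the lists were not tested against other genes. Called as higher were the carbonic anhydrase CA2 (3.12), the band 3 anion exchanger SLC4A1 (2.07), the Rh protein RHCE (1.53), the erythropoietin receptor EPOR (0.97) and ERMAP (0.77). Beta spectrin, SPTB (-0.54), was called as lower. Of all genes, 6.65% were called as higher and 3.53% as lower.

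Of 11 neighbours of the alpha cluster, 7 were tested and 1 passed the adjusted p, beside 33.8% of all genes, FAM234A at 0.30, which was not called. NPRL3, whose introns hold the main alpha globin enhancers, had a log2 fold change of 0.04 (SE 0.096, adjusted p = 0.793). Of 16 neighbours of the beta cluster, 6 were tested and 2 were called as higher, beside 6.65% of all genes, TRIM6 (0.98, SE 0.17, adjusted p = 1.8e-05) and TRIM5 (0.66, SE 0.14, adjusted p = 0.0002), members of the tripartite motif family. Within the beta cluster, the pseudogene HBBP1 had -0.18 (adjusted p = 0.641) and the noncoding BGLT3, downstream of HBG1, had 0.10 (adjusted p = 0.809). HBBP1 overlaps an annotated HBD transcript on the same strand and the annotated HBG2 gene spans HBE1, so reads in these stretches may have been counted under another name than that of their source.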

How the data were processed

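Bulk SCRB-seq libraries of K562 cells, 26 labelled KO and 11 labelled Control, were used. Per the labels and the study's methods, the authors mapped reads to hg38 with STAR 2.6.0a (version per the submitters' processing notes) and used zUMIs to count UMIs by gene (annotation Ensembl GRCh38.84); the zUMIs version is not given in the sources used here. The deposited values are these UMI counts, not normalized. Columns were matched to labels by barcode. Symbols and positions came from GENCODE 44 on GRCh38, which paired 31323 of 32055 identifiers. The globin genes and all gene lists were chosen with earlier results of these data known.

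Counts were fitted with edgeR 4.0.16 (R 4.3.3) after its default filter for low counts and TMM scaling, by a robust quasi-likelihood test with group alone and Benjamini-Hochberg adjustment over 10661 genes. The sums of duplicate genes replaced their rows in a second such fit. Levels are CPM after TMM, with a prior count of 2 where logged. Ratios had 0.5 added to each UMI count, and their p values were adjusted over the 4 ratios. A planned ratio with HBE1 was not computed. Alternatives were limma-voom (limma 3.58.1), DESeq2 1.42.0, RLE factors, library size alone, scaling without the globin genes, no filter, a filter at a mean of 10 CPM, AT-rich barcodes only, a covariate for barcode class, thinning to the smallest total, a pseudocount of 5, other fold thresholds, and leaving out each library. In simulated data of the same group sizes (10661 genes, 26 and 11 libraries), edgeR recovered 95% of the changed genes with 0 false calls. The planted changes were larger than the edgeR fold changes of the tested globin genes, and the simulated libraries were independent. This recovery therefore does not give the power to detect the globin differences. Over 380 pairs of libraries within a group, chi-square per degree of freedom was 1.14 or more, and none were merged. This measure cannot tell libraries of the same clone from those of separate clones. Transcripts were aligned with Biopython 1.88.

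Named were all globin genes with a row, the 5 genes at either end of likeness to the gamma and alpha sums (mean of at least 10 CPM), and of each list the genes with an adjusted p below 0.05, at most 5 by fold with the same mean. KLF1, BCL11A, TAL1, AHSP, SPTB, GP1BA, ITGAM, NPRL3, HBBP1, BGLT3 and TRIM6 fall outside that rule for lists and were named after their values were seen. Some genes that the rule names are not reported here.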

Additional observations from a re-analysis of the deposited data

How the results depend on the processing

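Every fit gave 0 globin genes called except limma-voom, which called 1, HBA2; the cause was not tested. The ratio of alpha to gamma transcripts, not called in any setting, turned from -0.08 to 0.11 among AT-rich barcodes alone. Leaving out each library in turn, the difference in log2 ratio ran from 0.27 to 0.31 for HBG2 to HBG1, from 0.51 to 0.57 for HBZ to alpha, from -0.68 to -0.50 for HBA2 to HBA1 and from -0.15 to -0.02 for alpha to gamma, and the first 2 passed the test in 37 of 37 runs. The log2 fold change of the gamma sum ran from -0.28 to -0.16 and that of the alpha sum from -0.37 to -0.17, and no run called a globin gene. Over the other settings, the gamma sum ran from -0.36 to -0.17, the alpha sum from -0.48 to -0.13, HBG1 from -0.50 to -0.35, HBG2 from -0.26 to -0.05, HBD from -0.16 to -0.01, HBZ from 0.15 to 0.35, HBA1 from -0.33 to -0.10, HBA2 from -1.16 to -0.16 and HBQ1 from -0.18 to -0.06. Of 583 alternative fold changes and ratios, 582 kept their direction. Of all genes, 1085 were called in the reported fit, 1720 with no filter, 672 at a mean of at least 10 CPM and 595 after thinning. No paired analysis was possible because the labels give no replicate numbers. Depth limits HBB, HBM, BCL11A and AHSP, and shared sequence limits the separate counts of HBG1 and HBG2 and of HBA1 and HBA2. UMI counts carry counting error, and the clone behind each library is not given in the labels.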
